A study of Homo sapiens with 6 samples.

Results

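Histone genes were followed across 6 samples of cultures derived from human embryonic stem cells. They were taken by name: every gene symbol of the deposited array table that began with HIST, a digit and H, or that was H1F0, H1FX or began with H2AF or H3F3. This gave 83 of 31410 symbols, 70 HIST genes and 13 genes of replacement histones. Both lines used, H1 and HUES8, are established lines of human embryonic stem cells. The cultures had been carried through a stepwise pancreatic protocol to its last stage, stage 6, in which some cells express insulin. There were 3 differentiations, 1 and 2 of H1 and 3 of HUES8. Each culture was divided. RNA of the live sample came from fresh cells through a column kit. Cells of the processed sample were fixed in paraformaldehyde, made permeable, stained for flow sorting and run through the sorter without discarding any, and their RNA came from a kit meant for fixed tissue. The live and processed samples of a differentiation came from 1 culture, and HUES8 was represented by a single culture.

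Histones package DNA into nucleosomes. The core of a nucleosome holds H2A, H2B, H3 and H4, and the linker histone H1 binds where DNA enters and leaves. The genes named HIST are taken here as the replication-dependent class. Most of them lie in clusters, have no introns and are transcribed in S phase. Most of their mRNAs end in a stem-loop in place of a poly(A) tail. Some of them also make polyadenylated mRNAs in cells that have left the cycle. Replacement histones such as H3.3, H2A.Z and macroH2A are made throughout the cell cycle from genes whose mRNAs carry a poly(A) tail. The labelling kit used here starts cDNA synthesis from poly(A) tails, so an array signal of a HIST gene does not stand for all of its mRNA.

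The number of histone genes with a clear signal differed between the classes. A gene entered the tests when its deposited intensity reached 40 on at least 3 of the 6 arrays. Of the 70 HIST genes, 17 did so (24.3%), and of the 13 replacement genes 9 did (69.2%), against 40.3% of all symbols (12653 of 31410). Among HIST genes these were 2 of 6 for H1, 4 of 17 for H2A, 5 of 18 for H2B, 1 of 14 for H3 and 5 of 15 for H4. A further 46 HIST genes stayed under 40 on all 6 arrays, with highest values between 4.40 and 39.0, and 7 reached 40 on 1 or 2 arrays. Of the replacement genes, H2AFB1, H2AFB2 and H2AFB3, which encode the testis variant H2A.B, stayed under 40 on all arrays. H2AFV, which encodes a second H2A.Z protein, reached 40 on 2 arrays with a highest value of 42.7. Between 24 and 28 histone genes per array reached 40. All differences below are on the log2(intensity + 20) scale, which understates the change of dim genes. Different genes have different probes, so no gene is called more abundant than another from its intensity. Sums over a list and ranks by brightness below describe array signal only.

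Other features of the arrays give the setting. Between 12297 and 12698 symbols per array reached an intensity of 40. The hormone genes INS (insulin), GCG (glucagon) and SST (somatostatin) had lowest intensities of 1898, 978 and 2602, and all 10 pancreatic endocrine markers were measured. Of 8 pluripotency markers, POU5F1, NANOG and TDGF1 stayed under 40 on all arrays, while LIN28 (1756 to 3275), SOX2 (651 to 2124) and DPPA4 (155 to 296) were above it on all. ZFP42 and L1TD1 lay between 196 and 368 in H1. In bulk RNA of mixed cultures, fewer cells of a type and less RNA per cell cannot be told apart.

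The comparison of the lines set HUES8 against the mean of the 2 H1 cultures. It gave the only called histone gene. HIST1H2BH, 1 of the H2B genes of the large cluster on chromosome 6, was called lower in HUES8, a call that rests on 1 HUES8 culture and on a gene above 40 in H1 only. HIST3H2A, an H2A gene on chromosome 1, and H1F0, which encodes the linker histone H1.0 that accumulates in differentiated and resting cells, stood highest in HUES8 of their classes without passing the test. Across all genes, limma called 219 of 12653 (1.73%), of which 62 were higher (0.49%) and 157 lower (1.24%), so 1 called gene of 26 histone genes lay near that share. A gene above 40 only in HUES8, which has 2 arrays, could not enter the tests, whereas one above 40 only in H1, with 4 arrays, could, so the split into higher and lower calls depends on the filter. At an unadjusted p under 0.05 were 6 of the 26, HIST1H2BH, HIST1H2BK, HIST1H4K, HIST3H2A, H1F0 and H2AFJ, against 10.6% of all genes. The test had 1 residual degree of freedom, from the H1 cultures. Each gene's spread was therefore drawn mostly from all genes tested, with 14.9 prior degrees of freedom in limma. With no filter these were 2.98. The single HUES8 culture was assumed to vary like the H1 cultures.

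HIST1H2BH had intensities of 226 and 236 in the live and processed samples of H1 differentiation 1, 176 and 133 in those of H1 differentiation 2, and 38.6 and 35.9 in those of HUES8. All 4 H1 arrays lay well above both HUES8 arrays, which were under 40. The log2 difference was -1.86 (95% interval -2.64 to -1.09, limma, adjusted p = 0.0108), or -2.13 against H1 differentiation 1 and -1.60 against H1 differentiation 2. With the HUES8 arrays set to 40, the gene was at least 3.48-fold lower. It passed the intensity filter only through the H1 arrays, where it was high. With processed samples alone the adjusted p was 0.0642, and with no filter it was 0.755.

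Promoters are shown for the called gene HIST1H2BH, its neighbour HIST1H3F, other H2B genes on either side of 0 between the lines, and H2A genes. The H2A genes shown read higher in HUES8, and of them HIST1H2AC was not tested. Each promoter is given as 300 bases from 250 bases before the start in RefSeq, build GRCh38.p14. All 83 members were matched to a current gene, 5 of them after setting aside a gene that was the sole match of another member, and 77 had a promoter sequence. Capitals mark the CCAAT box (CCAAT), the TATA box (TATAAA) and the octamer (ATTTGCAT), each searched on both strands. TTTATAAA holds the TATA box on both strands at once. The octamer is the site of the factor OCT1, which drives H2B genes in S phase. HIST1H2BH (now H2BC9, chr6:26251364-26251663, plus strand) and HIST1H3F (H3C7, chr6:26250586-26250885, minus strand) are divergent neighbours whose starts lie 979 bases apart.
HIST1H2BH: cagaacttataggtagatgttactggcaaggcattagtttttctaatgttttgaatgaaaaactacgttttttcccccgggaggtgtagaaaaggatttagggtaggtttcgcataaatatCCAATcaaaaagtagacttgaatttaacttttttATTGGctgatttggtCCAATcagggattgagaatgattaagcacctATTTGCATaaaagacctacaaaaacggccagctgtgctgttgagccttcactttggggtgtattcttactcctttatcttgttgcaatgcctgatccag
HIST1H3F: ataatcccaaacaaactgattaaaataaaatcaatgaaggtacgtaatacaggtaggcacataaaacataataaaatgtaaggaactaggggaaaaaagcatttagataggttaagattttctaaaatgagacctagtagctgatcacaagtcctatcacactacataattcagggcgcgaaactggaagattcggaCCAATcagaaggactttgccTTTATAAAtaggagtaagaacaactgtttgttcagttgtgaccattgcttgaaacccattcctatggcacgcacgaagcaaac
HIST1H2BK (H2BC12, chr6:27146809-27147108, minus strand) and HIST1H2BD (H2BC5, chr6:26157871-26158170, plus strand) are H2B genes that stood on opposite sides in the comparison of the lines.
HIST1H2BK: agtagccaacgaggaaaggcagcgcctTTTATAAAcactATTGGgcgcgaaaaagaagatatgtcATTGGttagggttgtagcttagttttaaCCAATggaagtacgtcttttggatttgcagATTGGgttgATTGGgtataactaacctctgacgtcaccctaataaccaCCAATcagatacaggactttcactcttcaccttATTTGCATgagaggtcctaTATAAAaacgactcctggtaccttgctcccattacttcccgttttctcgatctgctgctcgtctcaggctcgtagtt
HIST1H2BD: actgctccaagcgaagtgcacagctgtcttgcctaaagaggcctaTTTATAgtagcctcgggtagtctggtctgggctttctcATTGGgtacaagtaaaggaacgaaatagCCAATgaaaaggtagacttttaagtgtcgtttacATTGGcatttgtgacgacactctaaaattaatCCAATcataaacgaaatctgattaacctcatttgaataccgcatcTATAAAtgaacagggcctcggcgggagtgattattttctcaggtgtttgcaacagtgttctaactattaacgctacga
HIST1H2AC (H2AC6, chr6:26123922-26124221, plus strand) shares its upstream region with HIST1H2BC, and HIST3H2A (H2AC25, chr1:228457824-228458123, minus strand) shares its own with HIST3H2BB.
HIST1H2AC: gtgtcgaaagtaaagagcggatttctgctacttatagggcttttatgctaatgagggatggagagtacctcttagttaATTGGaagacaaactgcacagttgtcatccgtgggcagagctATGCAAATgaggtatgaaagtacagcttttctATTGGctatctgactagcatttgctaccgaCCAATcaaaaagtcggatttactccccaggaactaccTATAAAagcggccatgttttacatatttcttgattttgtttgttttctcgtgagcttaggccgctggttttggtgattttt
HIST3H2A: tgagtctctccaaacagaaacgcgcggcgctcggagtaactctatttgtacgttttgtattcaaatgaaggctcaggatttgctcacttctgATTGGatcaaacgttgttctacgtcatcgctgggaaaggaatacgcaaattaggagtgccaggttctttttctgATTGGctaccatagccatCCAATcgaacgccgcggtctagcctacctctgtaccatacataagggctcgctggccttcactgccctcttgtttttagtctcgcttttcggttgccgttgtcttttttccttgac

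Of the promoters shown, those of HIST1H2BH, HIST1H2BK and HIST1H2AC hold the octamer, and those of HIST1H2BD, HIST1H3F and HIST3H2A do not. All of them hold the CCAAT box, and all but HIST1H2BH and HIST3H2A the TATA box. Among HIST genes with a promoter sequence, 55 of 65 (84.6%) held the CCAAT box, 43 (66.2%) the TATA box and 26 the octamer. Of the 18 H2B genes, 14 (77.8%) held the octamer, and of the 12 replacement genes 1 (8.33%), H3F3B, did. Of 27305 promoters of the same length, 35.7% held the CCAAT box, 12.0% the TATA box and 1.80% the octamer. Of the 5 tested H2B genes, 4 (80.0%) held the octamer, among them HIST2H2BE, in which the lines overlapped. A match is a description of the letters, and a link of the motifs to the differences between the lines was not tested.

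HIST1H3F, the neighbour of HIST1H2BH and the only HIST gene of H3 that entered the tests, had intensities of 43.5 and 42.3 in H1 differentiation 1, 42.2 and 43.0 in H1 differentiation 2, and 38.2 and 34.1 in HUES8, live before processed. The HUES8 values lay below all H1 values, but by little, and the log2 difference was -0.16 (95% interval -0.89 to 0.57). HIST1H3F also passed the filter only through the H1 arrays.

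Other H2B genes lay on either side of 0 between the lines. HIST1H2BK read 1010.3 and 724 in H1 differentiation 1, 638 and 375 in H1 differentiation 2 and 364 and 339 in HUES8. Both HUES8 arrays were below all H1 arrays, yet the H1 cultures differed by almost as much from each other (-0.78, differentiation 2 minus 1) as HUES8 did from their mean (-0.85, adjusted p = 0.442). HIST1H2BC gave 62.6 and 55.0, 42.1 and 55.9, and 31.2 and 25.4 in the same order, with both HUES8 arrays under 40. The log2 difference was -0.61 and was not called. With the HUES8 arrays set to 40, HIST1H2BC was at least 1.23-fold lower, and it too passed the filter only through H1. HIST1H2BD had 119.6 and 78.0 in H1 differentiation 1, 153 and 119 in H1 differentiation 2 and 206 and 157 in HUES8. It stood at 0.57 (adjusted p = 0.665), and HUES8 lay above every H1 array. HIST2H2BE, an H2B gene of chromosome 1 known to make a polyadenylated mRNA, had 175 and 144, 239 and 258, and 232 and 163, and the groups overlapped (-0.03).

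The tested H2A genes of the HIST class, 4 in number, stood at or above 0 in HUES8, with a median of 0.47. HIST3H2A had intensities of 225 and 127 in H1 differentiation 1, 179.95 and 129 in H1 differentiation 2 and 387 and 349 in HUES8. Both HUES8 arrays lay above all 4 H1 arrays, and the log2 difference was 1.098, or 2.14-fold (95% interval 0.37 to 1.83, adjusted p = 0.150). Its divergent neighbour HIST3H2BB, with a start 230 bases away, stayed under 40 on all arrays, with a highest value of 14.6. HIST2H2AA3 and HIST2H2AA4 are near-identical copies whose signals may not be separable. HIST2H2AA3 read 114 and 95.8, 168 and 108, and 176 and 192, a difference of 0.55, and HUES8 lay above all H1 arrays. HIST2H2AA4 read 176 and 155, 277 and 159.9, and 238 and 264, a difference of 0.39 with overlap. HIST2H2AC gave 246 and 187, 226 and 186, and 194 and 237, and stood at 0.03, close to its divergent neighbour HIST2H2BE.

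HIST1H2AC was not tested because it reached 40 on 2 arrays only, and it is named after its values were seen. It read 28.8 and 15.6 in H1 differentiation 1, 25.03 and 24.1 in H1 differentiation 2, and 93.2 and 98.3 in HUES8. With the H1 arrays set to 40, it was at least 1.93-fold higher in HUES8. HIST1H2BC, whose start lies 246 bases away on the other strand, was on the opposite side.

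The H4 genes that entered the tests encode the same protein, and whether the probes separate the copies was not tested. HIST1H4K had 334 and 310.5 in H1 differentiation 1, 398 and 182 in H1 differentiation 2 and 134 and 151 in HUES8. HUES8 lay below every H1 array, and the difference was -0.96 (95% interval -1.70 to -0.22, adjusted p = 0.254). HIST1H4J read 171 and 143, 123 and 57.9, and 59.6 and 80.1, a difference of -0.61 with overlap. HIST2H4A, which has a near-identical copy in HIST2H4B, went the other way, with 51.6 and 52.6, 53.7 and 44.3, and 111 and 68.6 (0.61, adjusted p = 0.605). HIST1H4C read 11791 and 11271, 9942 and 5925, and 10608 and 11456 (0.23), and HIST1H4E 37.2 and 30.7, 49.7 and 66.0, and 23.1 and 40.4 (-0.34). In both, the lines overlapped.

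The linker histones of the HIST class differed little between the lines. HIST1H1C, which encodes H1.2, read 171 and 148 in H1 differentiation 1, 213 and 189 in H1 differentiation 2 and 209 and 203 in HUES8, a difference of 0.18. HIST1H1A, which encodes H1.1, lay near the filter on every array, with 46.3 and 56.5, 42.0 and 45.3, and 43.0 and 48.0 (-0.04).

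Of the replacement linker histones, H1F0 had intensities of 1803 and 1936 in H1 differentiation 1, 1994 and 1575 in H1 differentiation 2 and 3804 and 3956 in HUES8. The HUES8 arrays lay above all H1 arrays, which were close together, and the log2 difference was 1.08, or 2.12-fold (95% interval 0.35 to 1.81, adjusted p = 0.157). It was 1.05 against H1 differentiation 1 and 1.12 against H1 differentiation 2. H1FX, which encodes another linker histone, read 953 and 1086, 704 and 712, and 786 and 794, so HUES8 lay between the H1 cultures (-0.10).

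Among replacement H2A genes, H2AFJ stood lowest in HUES8. Its H2A.J protein is known to accumulate in senescent fibroblasts. It had 380.01 and 367 in H1 differentiation 1, 297 and 280.2 in H1 differentiation 2 and 150.2 and 198 in HUES8. HUES8 lay below every H1 array (-0.85, 95% interval -1.60 to -0.11, adjusted p = 0.365). H2AFX, whose protein is phosphorylated at DNA breaks, read 279 and 266, 202 and 120.05, and 160.4 and 140.2 (-0.42) with overlap. H2AFZ, the gene of H2A.Z, read 5559 and 5353, 5659 and 3703, and 5584 and 5047 (0.09). The macroH2A genes H2AFY and H2AFY2 encode variants with a large extra domain that are linked to silent chromatin. H2AFY read 2119 and 2126, 1539 and 1250.2, and 1689 and 1625 (-0.05), and H2AFY2 read 2874 and 2973, 2762 and 1732, and 2364 and 2474 (-0.06). For H2AFX, H2AFZ and both macroH2A genes the HUES8 values fell within the range of the 4 H1 arrays.

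H3F3A and H3F3B encode the same protein, H3.3, from separate genes. H3F3A read 10261 and 9079.8 in H1 differentiation 1, 9513 and 6994 in H1 differentiation 2 and 7399.5 and 6627 in HUES8 (-0.34, adjusted p = 0.866). H3F3B read 696 and 691, 1042 and 637, and 569.9 and 702 (-0.24, adjusted p = 0.934). The lines overlapped in both genes.

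**Figure D1:**
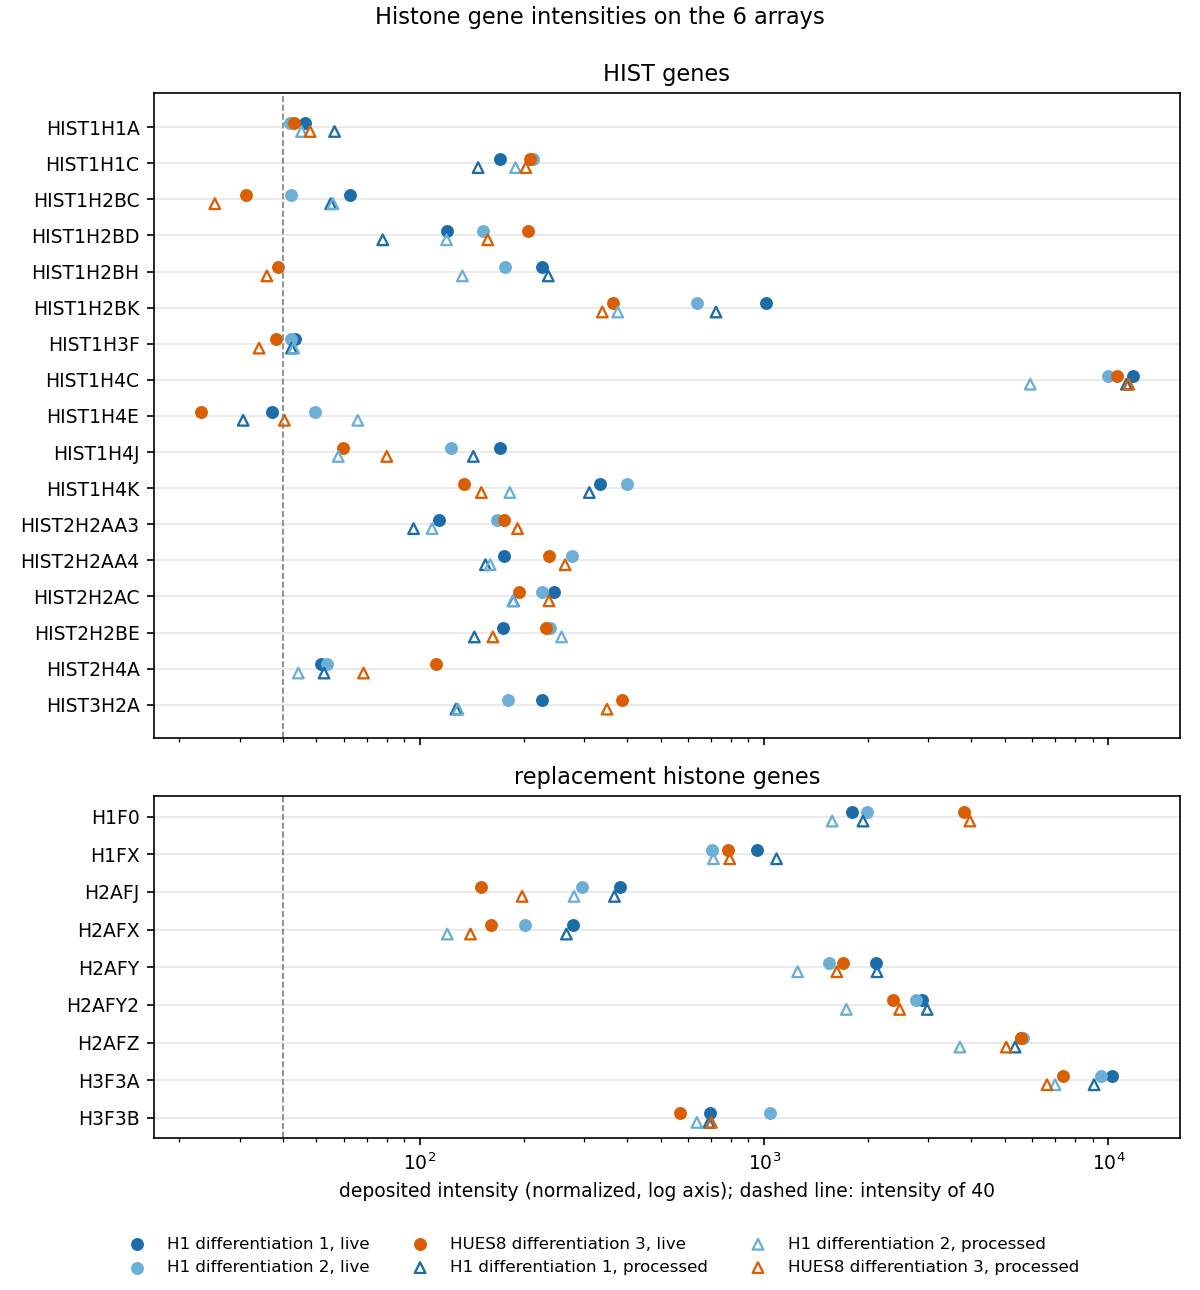
Deposited normalized intensity (log axis) of the 26 tested histone genes on the 6 arrays, with HIST genes above and replacement genes below. Circles are live and open triangles processed samples, coloured by differentiation, and the dashed line marks an intensity of 40. Both HUES8 arrays of HIST1H2BH (38.6 and 35.9) lie left of the line and far from the H1 arrays (133 to 236), while those of H1F0 (3804 and 3956) lie right of all H1 arrays.

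Class medians between the lines lay near 0 and are given without a test. The median difference was -0.03 for the 17 HIST genes, with 8 above 0 and 9 below. It was -0.10 for the 9 replacement genes, with 2 above 0 and 7 below. For all 12653 genes tested it was 0.02, with 6551 above 0 and 6102 below. The replacement median was -0.25 in live samples alone, 0.14 without H1 differentiation 1 and -0.35 without H1 differentiation 2, so its sign depended on the H1 culture. Both HUES8 arrays lay above all 4 H1 arrays for 4 HIST genes and H1F0, and 18.8% of all genes tested did so. They lay below all H1 arrays for 5 HIST genes and H2AFJ, against 18.5% of all genes. Of these, HIST1H2BC, HIST1H2BH and HIST1H3F passed the filter only through the H1 arrays, so the count depends on the filter. Both shares of the 26 histone genes lay near these backgrounds. The median size of the difference, without its sign, was 0.55 for HIST genes, 0.24 for replacement genes and 0.27 for all genes tested. With a filter on all 6 arrays, which removes HIST1H2BC, HIST1H2BH, HIST1H3F and HIST1H4E, the HIST median was 0.18.

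**Figure D2:**
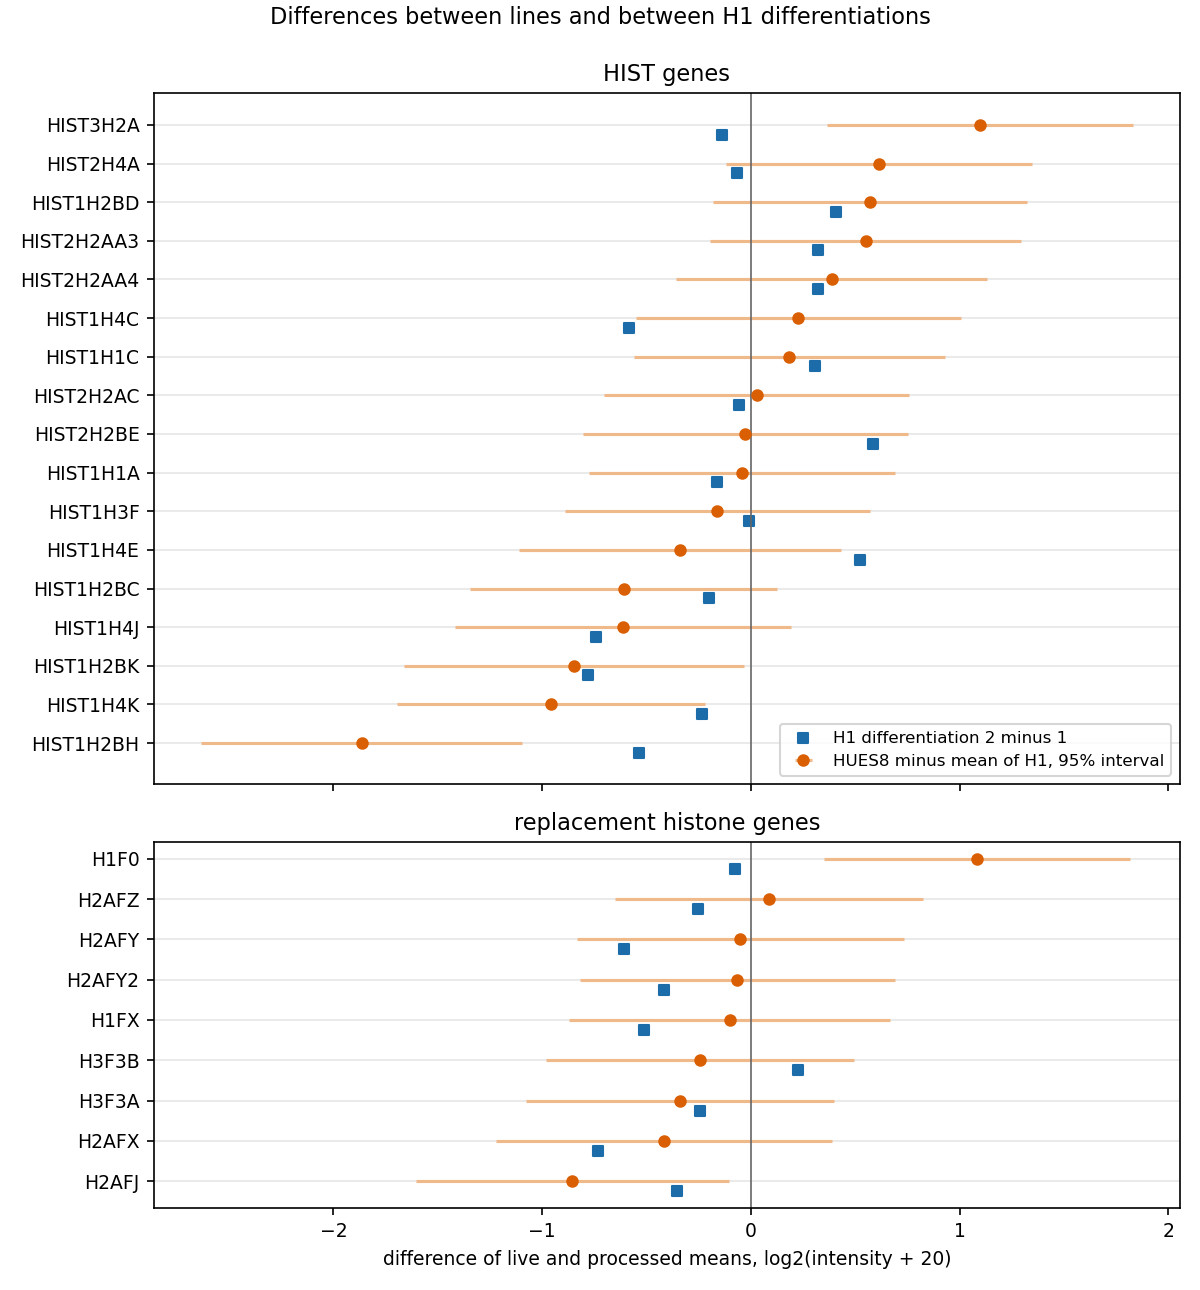
HUES8 minus the mean of H1 on the log2(intensity + 20) scale for each tested histone gene, with its 95% interval from limma (circles), and H1 differentiation 2 minus 1 (squares). Genes are ordered by the first. HIST1H2BH at -1.86 is the only called gene, and HIST3H2A (1.098) and H1F0 (1.08) stand at the other end, with squares near 0 (-0.14 and -0.08).

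Genes that act on histones and on the cell cycle were examined beside them. Of 14 tested genes of histone mRNA processing and transcription, 0 were called in either direction between the lines (smallest adjusted p = 0.495). UPF1 (-0.73) and CSTF2 (-0.54) were at the low end and LSM11 (0.29) and CPSF3 (0.22) at the high end. Of 19 histone chaperones and exchange factors, 0 were called (smallest adjusted p = 0.476), from SUPT16H (-0.73), a FACT subunit, and SRCAP (-0.58), which deposits H2A.Z, to SSRP1 (0.37) and UBN1 (0.38). Of 20 genes of DNA replication and proliferation, 0 were called (smallest adjusted p = 0.234), from AURKB (-0.98) and CDK2 (-0.78) to CDT1 (0.46) and TYMS (0.62), with a median of -0.18. The summed intensity of the proliferation list was 11452 to 12543 in H1 and 10706 to 12499 in HUES8.

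Cell type markers moved with the line too. Of 8 markers of liver and gut endoderm, 6 were called lower in HUES8, with summed intensities of 13643 to 19849 in H1 and 3027 to 3799.9 in HUES8. AFP, a fetal liver gene, lay between 6123 and 7813 in H1 and at 22.9 and 33.6 in HUES8. Of 10 pancreatic endocrine markers, PAX6 was called higher and PDX1 lower, with sums of 20774 to 30592 in H1 and 23771 to 25651 in HUES8. ZFP42 and L1TD1, of 5 tested pluripotency markers, were called lower. No mesenchymal or neural marker of 6 each was called, with medians of -0.84 and 0.78, and the neural sums were 1000.5 to 1298 in H1 and 2043 to 2686 in HUES8. The part of the cell mixture in the histone differences was not tested.

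The H1 cultures gave a measure of how far 2 differentiations of 1 line can lie apart. With 1 culture a side there was no test. Replacement genes were mostly lower in differentiation 2, 8 of 9, with a median of -0.35 (-0.11 in live and -0.53 in processed samples). Of all genes tested, 6836 of 12653 were lower, with a median of -0.04. Cell type markers moved as well, with medians of -0.62 for pancreatic endocrine, -0.61 for liver and gut, 0.30 for pluripotency, 1.35 for mesenchymal and -0.10 for neural markers, and their part in the histone values was not tested. H2AFX (-0.73), H2AFY (-0.61) and H1FX (-0.51) were lowest, and H3F3B (0.23), H1F0 (-0.08) and H3F3A (-0.24) highest. HIST genes had a median of -0.07, with 11 of 17 lower. HIST1H2BK (-0.78), HIST1H4J (-0.74) and HIST1H4C (-0.59) were at one end, and HIST2H2BE (0.59), HIST1H4E (0.52) and HIST1H2BD (0.41) at the other. Only HIST1H2BK among the 26 was at least 1.5-fold lower in both live and processed samples (-0.65 live and -0.91 processed), and 5.65% of all genes tested were. At least 1.5-fold higher in both were 0 of 26, against 3.81%. Genes of histone mRNA processing had a median of 0.09, from CPSF2 (-0.77) and SLBP (-0.61), which binds the stem-loop, to LSM11 (0.57) and ERI1 (0.59). Histone chaperones had a median of 0.05, from ASF1B (-0.68) and RUVBL1 (-0.33) to EP400 (0.32) and ASF1A (0.52), where ASF1A and ASF1B are paralogues that carry H3 and H4. Proliferation genes had a median of -0.12, from PCNA (-0.51) and CDT1 (-0.49) to MCM6 (0.22) and CDK2 (0.59).

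The comparison of processed with live samples asked whether histone mRNAs differ between the preparations. Fixation, staining, sorting and the RNA kit all differed between them and cannot be told apart. No histone gene passed. With a block for differentiation, limma called 0 of 12653 genes (0%), and 1221 (9.65%) had an unadjusted p under 0.05. The median of the gene means was -0.21 for HIST genes and -0.14 for replacement genes, against -0.03 for all genes tested. The medians of the 3 single pairs had an SD of 0.13 for HIST genes and 0.26 for replacement genes. At an unadjusted p under 0.05, 3 of the 26 were lower, HIST3H2A, HIST1H2BK and HIST1H2BD, against 4.76% of all genes tested. On the higher side were 0, against 4.89%. The methods' t-test, for which no pairing is stated and which was run here on pairs, had 883 genes (6.98%) at that threshold, HIST1H2BD alone among the 26, and 0 after adjustment.

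HIST1H2BD was lower in the processed sample of every pair, by similar amounts, -0.51, -0.31 and -0.35 in pairs 1 to 3 (mean -0.39 ± 0.11, SD, n = 3 pairs, adjusted p = 0.453). HIST1H2BK stood at -0.47, -0.74 and -0.10 (mean -0.44 ± 0.32, adjusted p = 0.465). HIST3H2A stood at -0.74, -0.42 and -0.14 (mean -0.43 ± 0.30, adjusted p = 0.459). The 95% intervals of these 3 genes lay below 0. HIST1H1C (-0.13 ± 0.08) was also on the lower side in 3 of 3 pairs, and so were H2AFX (-0.30 ± 0.32), H2AFZ (-0.27 ± 0.30) and H3F3A (-0.26 ± 0.16). That made 7 of 26 histone genes, against 19.8% of all genes tested. HIST1H1A (0.13 ± 0.07) and H1FX (0.07 ± 0.10) were on the higher side in 3 of 3 pairs, 2 of 26 against 13.7%. The highest means among HIST genes were 0.21 ± 0.34 for HIST1H4E, then HIST1H1A, HIST1H2BC (-0.01 ± 0.26) and HIST1H3F (-0.04 ± 0.06).

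**Figure D3:**
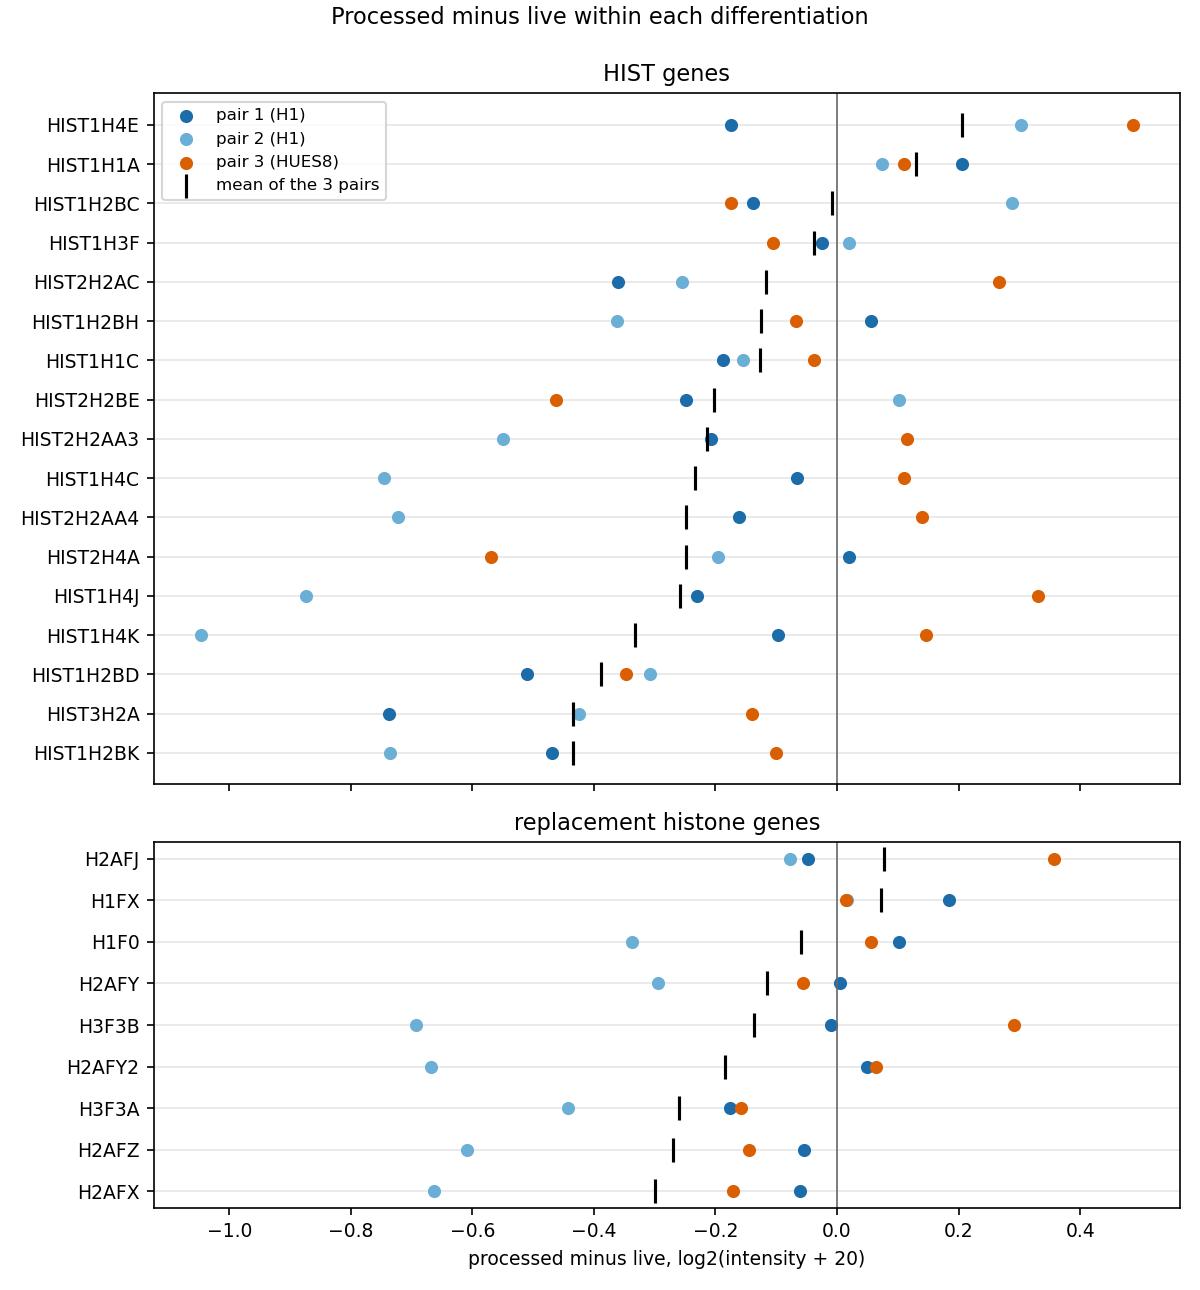
Processed minus live on the log2(intensity + 20) scale for each tested histone gene, with 1 point per pair and a bar at the mean of the 3 pairs. The light blue points of pair 2 reach furthest to the left, to -1.05 for HIST1H4K, while the HUES8 points of many of the same genes lie right of 0.

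The pairs differed from each other. In pair 2, the second H1 differentiation, 9 of 26 histone genes (34.6%) were at least 1.5-fold lower in the processed sample, against 5.32% of all genes tested. HIST1H4K went from 398 live to 182 processed, HIST1H4J from 123 to 57.9 and HIST1H4C from 9942 to 5925. The other 6 were HIST1H2BK, HIST2H2AA4, H2AFX, H2AFY2, H2AFZ and H3F3B. In pair 1 only HIST3H2A was (1.49% of all genes tested), and in pair 3, of HUES8, 0 of 26 were (2.13%). At least 1.5-fold higher were 0 of 26 in each pair, against 1.84%, 3.23% and 5.75% of all genes tested. The median of HIST genes was -0.17, -0.31 and -0.04 in pairs 1 to 3, and that of replacement genes -0.01, -0.44 and 0.01. The H4 genes had medians of -0.10, -0.74 and 0.15. Without pair 2 the means of HIST1H4K, HIST1H4J and HIST1H4C were 0.02, 0.05 and 0.02, and the class medians were -0.05 and 0.06.

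Across all genes, the size of the shift in pair 2 went with brightness. The median was -0.30 in the brightest decile of genes and -0.02 in the dimmest decile, and 14.1% of the brightest decile were at least 1.5-fold lower. In the brightest decile were 6 histone genes, H1F0, H2AFY, H2AFY2, H2AFZ, H3F3A and HIST1H4C, with a median of -0.53 in pair 2, -0.02 in pair 1 and 0.00027 in pair 3. Of the histone genes at least 1.5-fold lower in pair 2, HIST1H4C, H2AFY2 and H2AFZ were in that decile. H3F3B and HIST1H2BK were in deciles 9 and 8 from the dimmest. HIST1H4K, H2AFX, HIST2H2AA4 and HIST1H4J were in deciles 6, 6, 6 and 4. After quantile normalization, which evens out signal distributions, 5 of 26 (19.2%) were at least 1.5-fold lower in pair 2, against 3.26% of all genes and 2.84% of the brightest decile. The part of the signal in these differences was not tested.

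**Figure D4:**
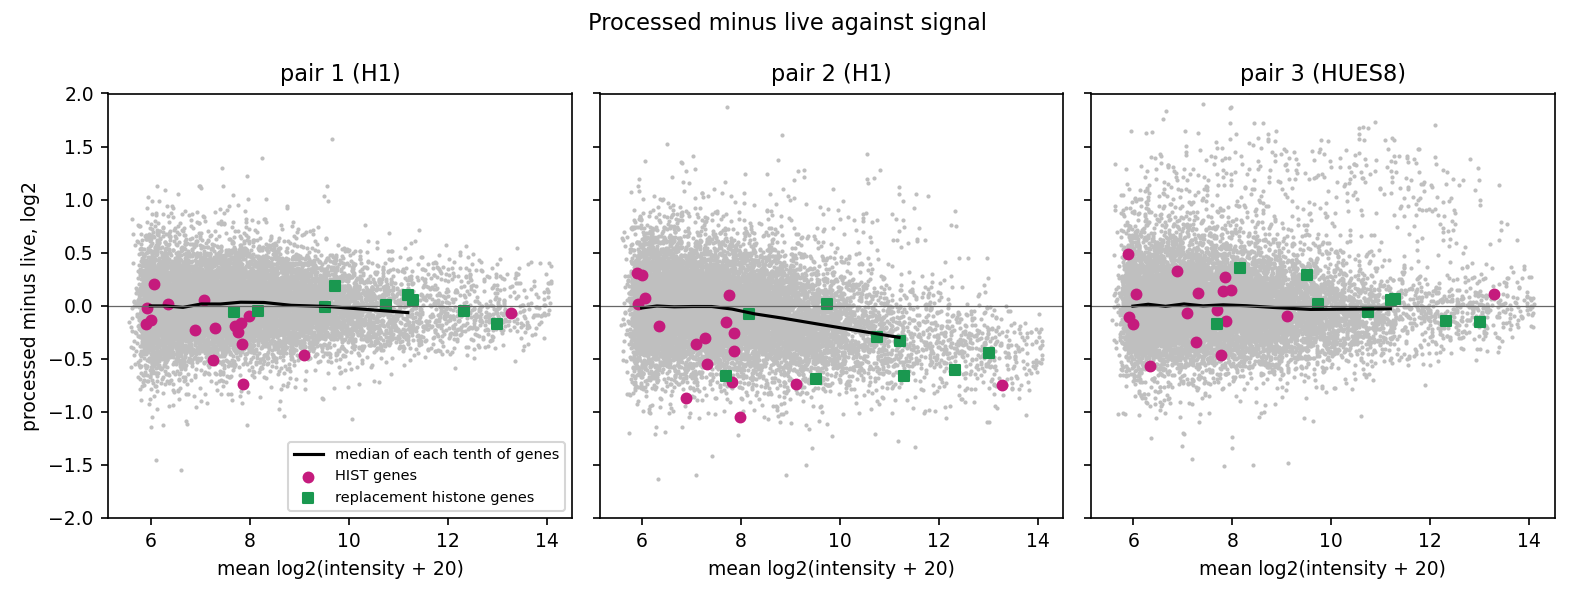
Processed minus live in each pair against the mean signal over the 6 arrays, both on the log2(intensity + 20) scale, for all 12653 genes tested (grey) with HIST genes as circles and replacement genes as squares. The black line joins the medians of deciles of genes and bends down in pair 2 to -0.30 in the brightest decile. The genes outside the plotted range of 2 to either side number 0, 3 and 8 in pairs 1 to 3.

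A further test asked whether processing shifted HUES8 by another amount than H1, from the 3 within-pair differences. HUES8 contributed a single difference, and limma gave all genes the same spread, so their intervals are equally wide. No histone gene was called, and 0.261% of all genes were (33 of 12653). At an unadjusted p under 0.05 was 1 of 26, HIST1H4J, against 4.43%. The effect stood higher in HUES8 than the mean of H1 for 12 of 17 HIST genes, with a median of 0.42. It did so for 8 of 9 replacement genes, with a median of 0.19. Among all genes tested it did so for 7039 of 12653, with a median of 0.04. HIST1H4J had the largest difference, 0.88 (95% interval 0.15 to 1.62, adjusted p = 0.846), with effects of -0.23 and -0.87 in the H1 pairs and 0.33 in HUES8. HIST1H4K (0.72) and H3F3B (0.64) followed. At the other end, HIST2H4A stood at -0.48, with 0.02 and -0.20 in the H1 pairs and -0.57 in HUES8. After quantile normalization the median was 0.27 for HIST genes and -0.02 for replacement genes. The replacement median was 0.43 without H1 differentiation 1 and -0.05 without H1 differentiation 2.

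The related gene lists also held 0 called genes in the comparison of processed with live samples. Genes of histone mRNA processing had a median of 0.01, from CPSF3 (-0.16) and SLBP (-0.10) to SYMPK (0.21) and UPF1 (0.29). Histone chaperones had a median of -0.07, from RUVBL1 (-0.45) and YEATS4 (-0.36), which act in H2A.Z exchange, to EP400 (0.33) and CABIN1 (0.42). Proliferation genes had a median of -0.08, from PCNA (-0.34) and RRM1 (-0.27) to MKI67 (0.17) and CDK2 (0.26). In pair 2 these lists stood at 0.09, 0.07 and -0.06. Cell type markers had pair 2 medians of -0.40 for pluripotency, -0.29 for pancreatic endocrine, -0.09 for mesenchymal, -0.04 for neural and 0.08 for liver and gut markers, so the 2 lowest lists were about as low as the HIST (-0.31) and replacement (-0.44) genes. Their part in the histone values was not tested.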

How the data were processed

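RNA was labelled by the authors with a biotin amplification kit and hybridized to Illumina Human HT-12 arrays, 1 per sample. The deposited table holds 1 linear intensity per gene symbol and array. Per the methods, the authors used GenomeStudio to subtract background and applied a rank-invariant normalization. The offset of 20 named in the methods had not been added. A second table was not used because the names of its 6 signal columns match no sample label.

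Values below 0 were set to 0, 20 was added and log2 was taken. Testing took in genes that reached 40 on 3 or more arrays, with limma 3.58.1 in R 4.3.3 (lmFit, eBayes), with Benjamini-Hochberg adjusted p-values over all 12653 genes and a threshold of 0.05. Processed and live samples were compared with the differentiation as a block, since the labels give the live and processed samples of a culture the same differentiation. Deviations from the group means correlated at 0.79, 0.62 and 0.81 within pairs. The lines were compared on the 3 means and on the 3 within-pair differences. The H1 cultures were compared without a test. The fits of processed minus live and of HUES8 minus H1 were also run on simulated data. The simulation gave every gene the same spread, so it does not show how sure the calls are here. Array number limits the precision. The members and lists were chosen with earlier results of these data known. Values in every sample were given for called genes and, in each class, the 4 highest and lowest processed minus live, 5 between lines and 3 between H1 cultures. Of other lists, called genes and the 2 at each end were named. Alternatives were another offset, 2 other filters, 2 other scalings, leaving out samples, no block and the methods' t-test, run on pairs. Pair 2 counts under other scalings were added after the data were seen. Names and promoters came from RefSeq tables of GRCh38.p14.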

Additional observations from a re-analysis of the deposited data

How the results depend on the processing

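No histone gene was called between processed and live samples under any alternative run, without any one pair, without the replicate block (0 called) or with the methods' t-test. The block changed no call. Leaving out 1 pair gave HIST medians of -0.31 to -0.046 and replacement medians of -0.31 to 0.057. Between the lines, the call of HIST1H2BH was lost with no filter, with processed samples alone and with the filter on all 6 arrays, which removes the gene (0 called in each). It was kept with live samples alone, an offset of 50 and both other scalings. No paired analysis of the lines was possible because no sample is shared between them. The HIST median between the lines was 0.18 with the filter on all 6 arrays, and -0.06 and 0.03 without 1 H1 culture, and the replacement median -0.35 and 0.14. The HIST median of the processing effect was 0.088 with no filter, 0.25 with an offset of 50 and 0.27 after quantile normalization. Without 1 H1 culture it was 0.18 to 0.28. Between the H1 cultures the HIST median was -0.030 in live and 0.015 in processed samples. The count of 9 genes lower in pair 2 was 5 after quantile normalization. The causes were not tested, and without 1 H1 culture no count of calls can be given.

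Uncalled genes that changed sign between processed and live samples, with their range when 1 pair was left out, were H1F0 (-0.14 to 0.079), H2AFJ (-0.062 to 0.16), H2AFY2 (-0.31 to 0.057), H3F3B (-0.35 to 0.14), HIST1H2BC (-0.16 to 0.075), HIST1H4C (-0.40 to 0.023), HIST1H4J (-0.55 to 0.050), HIST1H4K (-0.57 to 0.024) and HIST2H2AC (-0.31 to 0.0058). After quantile normalization H1F0 stood at 0.0056 and HIST1H2BC at 0.0084. Between the lines, with live samples alone, these were H2AFZ (-0.0063), HIST1H4C (-0.029), HIST2H2AC (-0.26) and HIST2H2BE (0.17), with processed samples alone H2AFY2 (0.12) and H3F3B (0.080), and after quantile normalization H2AFZ (-0.064). Without 1 or the other H1 culture, the differences between the lines ran from -0.36 to 0.15 for H1FX, -0.35 to 0.25 for H2AFY, -0.27 to 0.14 for H2AFY2, -0.04 to 0.21 for H2AFZ, -0.12 to 0.04 for HIST1H1A, -0.06 to 0.52 for HIST1H4C, -0.00057 to 0.06 for HIST2H2AC and -0.32 to 0.27 for HIST2H2BE. The processing effect became -0.14 for H1F0, -0.017 for H2AFY, -0.11 for H2AFZ and -0.15 for H3F3A after quantile normalization. HIST1H2BH between the lines kept its direction throughout, from -2.13 to -1.45.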
